A study of Mus musculus with 29 samples.

Results

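The miRNAs of the miR-297, miR-466, miR-467 and miR-669 families were examined in gonadal white adipose tissue (gWAT) of diabetes-prone (DP) and diabetes-resistant (DR) mice. A member was any mature miRNA entry whose name carries 1 of these 4 family numbers, followed by a letter, a hyphen or nothing. This gave 67 of the 1571 mature entries of a small RNA count table with 5355 entries in all. All mice were female, of the genetically identical New Zealand Obese strain NZO/HIBomDife, and 10 weeks old. The study names 15 mice per group, and the count table holds libraries of 15 DP and 14 DR animals. After 5 weeks of high-fat diet a risk score had placed each mouse in its group, and hyperglycaemia arises only later in DP mice. Both groups therefore share strain, sex, diet and age, and whole tissue was sequenced, so that fewer cells of a type and less RNA per cell cannot be told apart.

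MiRNAs are short RNAs cut from the 2 arms (5p and 3p) of a hairpin precursor, and the seed near the 5′ end (bases 2 to 8) guides them to target mRNAs. The 4 families are rodent-specific and expanded by repeated duplication within an intron of Sfmbt2, a Polycomb-group gene that is imprinted in the mouse and expressed from the paternal copy in the placenta. They are best known from embryonic stem cells and the trophoblast, and less is known of them in adipose tissue.

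In the GRCm38 annotation, Sfmbt2 lies on the plus strand of chromosome 2, from 10370510 to 10595253. Of 81 annotated hairpins of the 4 families, 71 lay inside the gene. All of these were intronic, in 1 intron from 10461473 to 10523944, and none overlapped an exon. They spanned 51.6 kb, with 5 miR-297, 23 miR-466, 14 miR-467 and 29 miR-669 hairpins interleaved with each other. The other 10 hairpins lay on other chromosomes. Among the members, 58 had hairpins only in Sfmbt2, 5 only elsewhere and 4 in both places, and 17 had more than 1 hairpin.

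**Figure D1:**
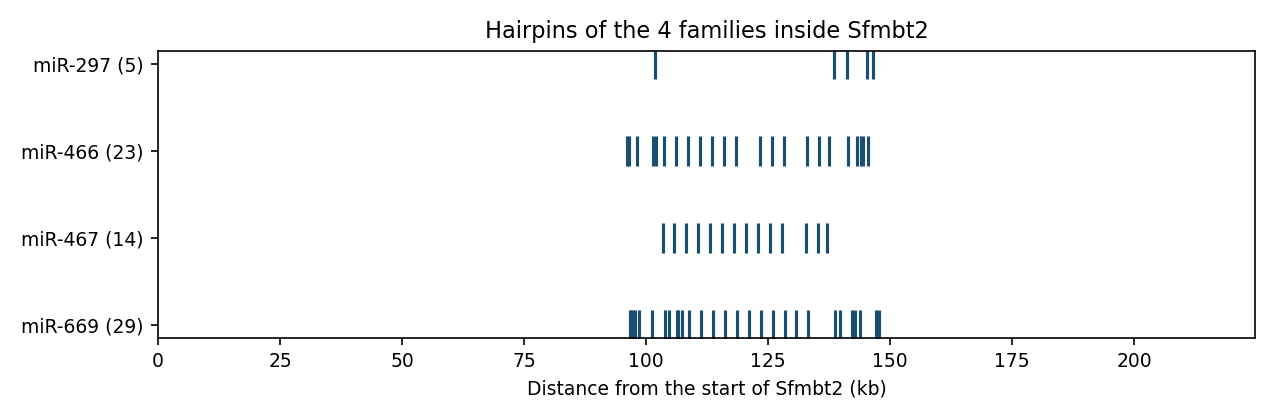
Start of each family hairpin inside Sfmbt2, as distance from the gene's start in kb, with 1 row per family and the number of hairpins in brackets. The 71 hairpins occupy 1 block and the families are interleaved rather than separate.

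Sequences were at hand for 21 names of the families, 16 of them among the members (4 from RefSeq on GRCm38.p6 and 12 from the sequence column of the study's supplementary list of miRNAs). They are shown because some names resemble each other so closely that their counts are hard to read without them. No sequence was at hand for miR-467a-5p, miR-467e-5p, miR-467d-5p or miR-467c-5p, the most abundant members. The 21 names also include 5 that are not among the members. Some names, such as miR-466j and miR-467h, have hairpins only outside Sfmbt2. The shares below therefore do not describe the bulk of the counts. Capitals mark the seed. The first entry is the member that passed the test between groups, the second an abundant member of another family, the next pairs have 1 sequence under 2 names, and the last 3 show near copies and a 3p arm.
miR-297a-5p: aUGUAUGUgugcaugugcaugu
miR-669b-5p: aGUUUUGUgugcaugugcaugu
miR-669a-3p: aCAUAACAuacacacacacguau
miR-669o-3p: aCAUAACAuacacacacacguau
miR-466m-5p: uGUGUGCAugugcauguguguau
miR-669m-5p: uGUGUGCAugugcauguguguau
miR-466h-5p: uGUGUGCAugugcuugugugua
miR-466j: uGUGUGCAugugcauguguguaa
miR-466f-3p: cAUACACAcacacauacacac
The 5p arms shown were rich in U and G and the 3p arms in A and C. The larger of the G plus U share and the A plus C share had a median of 78.3% over the 21 names (68.2 to 90.5%), against 59.1% over 1671 other mature mouse miRNAs in RefSeq. The heptamer UGCAUGU, searched on the mature strand, occurred in 8 of the 21 sequences and in 0.0598% of the others. MiR-466h-5p differed from miR-466m-5p by U14A and in length, with 22 bases against 23. MiR-466j differed from miR-466m-5p by A23U, all counted from 1 at the 5′ end of the first name.

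The libraries held 24416345 to 27513950 counts in DP and 24266300 to 27662601 in DR mice. The members took few of them. Their summed count was 3993 to 5546 in DP libraries (median 4941), against 4105 to 5545 in DR libraries (median 4471). As a share of mature miRNA counts this was 0.0403% ± 0.0044 (SD, n = 15) in DP and 0.0361% ± 0.0032 (SD, n = 14) in DR mice. After TMM scaling (edgeR's correction for composition) the summed level was 213.6 ± 16.7 CPM (± SD) in DP libraries, against 211.9 ± 17 CPM in DR libraries. CPM are counts scaled to a common total of the tested mature and hairpin miRNA entries, not of all entries. The TMM-scaled sums overlapped almost entirely, whereas the unscaled share of mature counts had a higher mean in DP mice. These measures also differ in their totals. Mature counts averaged 12023501 in DP and 12681985 in DR libraries, and mature plus hairpin counts 22050705 and 22184971. The comparison of the summed level thus depends on the total and the scaling used, whose parts were not separated.

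The table was checked against markers of the tissue. The adipose-abundant miRNAs miR-143-3p and miR-26a-5p were among the high entries, at medians of 23527 and 40461 CPM in DP and 33011 and 49919 CPM in DR libraries. From the same list of 5, miR-378a-3p had medians of 4200 CPM in DP and 5581 CPM in DR libraries. Far lower were miR-193b-3p, at 129 and 198 CPM, and miR-148a-3p, at 114 and 123 CPM. The early embryonic miRNAs miR-290a-5p, miR-291a-3p, miR-292a-3p, miR-294-3p and miR-295-3p, at home where the Sfmbt2 cluster is best known, summed to 0.38 to 1.13 CPM in DP and 0.14 to 1.62 CPM in DR libraries, and none reached the mean count of 10 needed for testing. The ovarian miR-202-5p never exceeded a count of 11. Other markers differed between groups. Both myeloid markers (miR-223-3p and miR-142a-3p) were higher in DP mice, with a summed level of 356.1 to 681.4 CPM in DP and 331.5 to 489.1 CPM in DR libraries. Of the 5 adipose-abundant miRNAs 4 were lower in DP, with a summed level of 54804 to 80663 CPM in DP and 79924 to 108523 CPM in DR libraries. The endothelial miR-126a-3p, the lymphocyte miR-150-5p and, of the 2 epithelial markers, miR-200b-3p were lower too.

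A single miRNA dominated the members. MiR-467a-5p, encoded by 10 hairpin copies in the intron, held 44.7% of all member counts. It had 73.1 to 119.1 CPM in DP libraries (median 96.2), against 82.0 to 107.7 CPM in DR libraries (median 92.6). The log2 fold change of DP over DR was 0.01 ± 0.07 (SE, adjusted p = 0.931 from the quasi-likelihood F-test of edgeR, Benjamini-Hochberg adjusted across every feature fitted). The miR-467 family as a whole took 73.1% of the member counts with 11 names, miR-669 17% with 22 names, miR-466 6.23% with 28 names and miR-297 3.68% with 6 names. The 5p arms carried 94.6% of the counts and the 3p arms 3.98%. Of the 67 members, 40 had a mean count of 10 or less and were not tested, 21 of them under 1. The 27 tested members held 98.1% of the counts, and they had passed a filter on the mean over both groups.

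Next in abundance were 3 further 5p arms of the miR-467 family. MiR-467e-5p had 19.2 to 34.3 CPM in DP (median 23.7) and 20.3 to 35.2 CPM in DR libraries (median 24.8). MiR-467d-5p had 11.8 to 21.4 CPM in DP (median 17.1) and 15.9 to 21.8 CPM in DR libraries (median 18.8). MiR-467c-5p had 11.1 to 16.5 CPM in DP (median 13.3) and 9.003 to 16.9 CPM in DR libraries (median 12.3). In all 3 the groups overlapped over most of their range, and none passed the test. Their log2 fold changes were -0.09 for miR-467e-5p, -0.16 for miR-467d-5p and 0.14 for miR-467c-5p. MiR-467d-5p came closest, with an adjusted p of 0.108 in the quasi-likelihood test, and it passed (adjusted p = 0.0274) when library number 200 or above was added to the fit.

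The leading members of the miR-669 family did not pass the test either. MiR-669b-5p had 8.40 to 12.6 CPM in DP (median 9.98) and 7.19 to 12.4 CPM in DR libraries (median 9.54). MiR-669l-5p had 4.13 to 8.87 CPM in DP (median 6.90) and 5.02 to 8.22 CPM in DR libraries (median 6.34). MiR-669o-5p had 4.16 to 7.29 CPM in DP (median 5.63) and 4.48 to 7.83 CPM in DR libraries (median 5.60). Their fold changes lay between -0.02 and 0.08 on the log2 scale, within their standard errors. By mean CPM of each name, the order of levels was miR-467a-5p, miR-467e-5p, miR-467d-5p, miR-467c-5p, miR-669b-5p, miR-669l-5p, miR-297a-5p and miR-669o-5p. The range of miR-467a-5p lay apart from the others, and from miR-467e-5p down to miR-669o-5p the ranges of neighbours in this order overlapped. MiR-669c-5p, a name near 0 in some libraries, falls outside these 8 by its mean, but its medians of 6.53 CPM in DP and 7.10 CPM in DR libraries were above those of miR-669o-5p. These levels are CPM and not per length, but mature miRNAs are of nearly the same length.

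**Figure D2:**
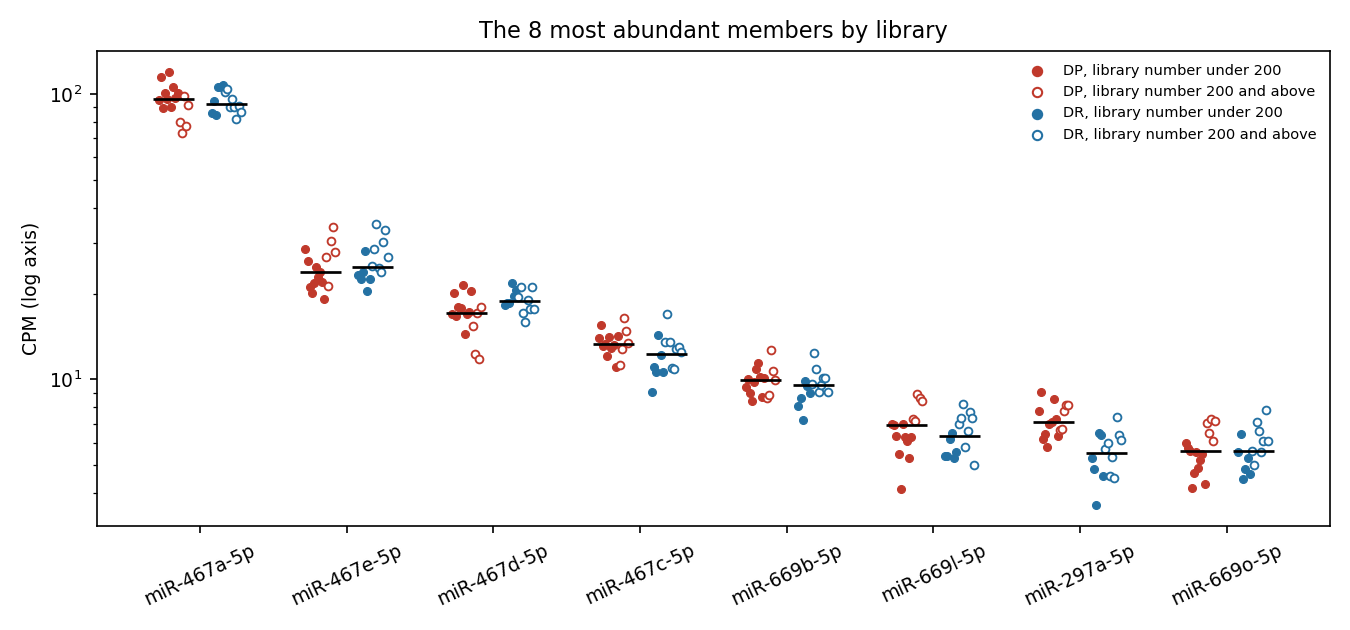
CPM (log axis) of the 8 most abundant members in each library, DP left and DR right, with filled points for library numbers below 200, open points for 200 and above, and a bar at the group median. MiR-467a-5p stands well above the rest, and of these 8 only miR-297a-5p passed the test between DP and DR.

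MiR-297a-5p was the exception. It was higher in DP mice, with 5.79 to 9.04 CPM in DP libraries (median 7.12), against 3.64 to 7.41 CPM in DR libraries (median 5.51). All 15 DP libraries lay above the DR median, although the ranges overlapped. The log2 fold change was 0.39 ± 0.09 (SE, 95% interval 0.22 to 0.57), with an adjusted p of 0.00099 in the quasi-likelihood test. Among the 27 tested members it was the 1 that passed, where 27.2% of all tested mature entries and 25.9% of all tested features passed in either direction. The unadjusted p was under 0.05 in 2 of 27 members, against 39.7% of all tested mature entries. The median log2 fold change was 0.0096 over the members and 0.017 over the 574 mature entries tested. Its hairpins number 4, with 3 inside Sfmbt2 and 1 on chromosome 7, and its count does not tell which copy the reads came from. The hairpin entry of the same name had a log2 fold change of 0.40 ± 0.16 (SE) and an adjusted p of 0.0729. In the libraries numbered below 200 the fold change was 0.46 (adjusted p = 0.0191), and in those of 200 and above it was 0.40 (adjusted p = 0.105), each by edgeR. The myeloid, adipose, endothelial and lymphocyte markers given above moved with the same groups, and their part in the miR-297a-5p difference was not tested.

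The name alone was not a stable unit for some members. MiR-669a-5p and miR-669p-5p were counted in turn. In 12 of the 29 libraries miR-669a-5p held at least 96.1% of their summed count, and in the other 17 miR-669p-5p did. In the DP libraries where it led, miR-669p-5p had 51 to 99 counts, and where it did not lead at most 1. The same alternation appeared between miR-669a-3p and miR-669o-3p, which have 1 sequence. There the sum was 9 to 52 counts per library, miR-669a-3p led in 15 libraries and miR-669o-3p in 14. MiR-466b-3p, miR-466c-3p and miR-466p-3p formed a set of 3, leading in 9, 12 and 8 libraries.

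Names of other RNA classes took part too. MiR-669c-5p had 0 counts in some libraries of each group and up to 200 in DP and 335 in DR libraries. Where it was near 0, the piRNA entry mmu_piR_032015 held 118 to 184 counts in DP and 146 to 205 in DR libraries. MiR-297c-5p alternated likewise with mmu_piR_024749, leading in 14 of the 29 libraries. A count of 0 allows up to 3 counts at such a depth, and the counts of the leading partner were far above this.

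A rule set after these counts were seen was then applied to 873 mature entries, and 882 piRNA entries were searched for partners of members. Within a set, 1 name had to hold 80% of the sum in at least 27 libraries, each name had to lead in at least 5, the median counts of the names where they led had to lie within 2-fold, and the lowest sum had to be at least 15% of the median sum. It found 9 sets, and 7 of them held members, with 13 member names. The remaining sets were let-7a-1-3p with let-7c-2-3p and miR-199a-3p with miR-199b-3p, so that alternation also occurred outside the Sfmbt2 families. Members were 43 of the 873 mature entries searched. Partners among piRNA entries were sought for members alone, and the rule was set after the members' counts were seen. The numbers of sets with and without members therefore do not compare members with other entries. In the 4 sets for which every sequence was at hand, the sequences were identical. For the other sets the sequences were not all at hand. Among these were miR-669a-5p with miR-669p-5p and miR-669c-5p with mmu_piR_032015, which were grouped by their counts alone. The sets of low count were miR-466b-5p with miR-466o-5p, summing to 4 to 20 counts, and miR-466m-5p with miR-669m-5p, summing to 2 to 14 counts. How reads matching several names were assigned is not given in the sources used here.

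**Figure D3:**
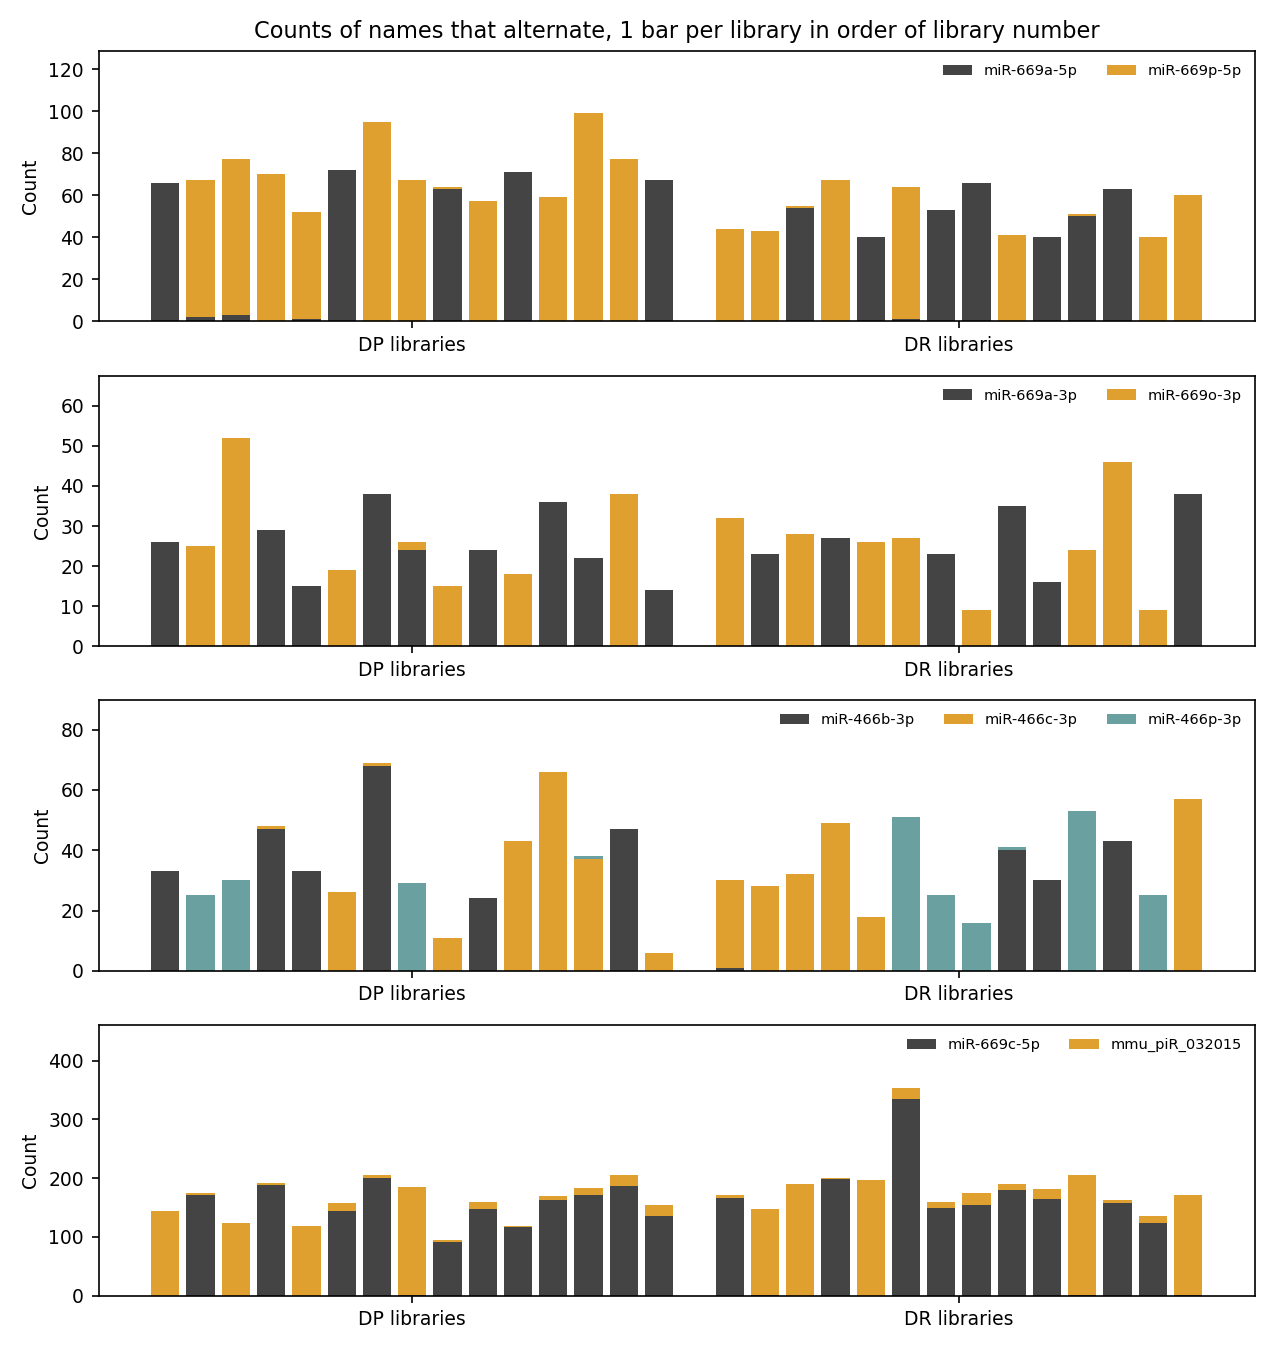
Counts of the names in 4 alternating sets, stacked, with 1 bar per library in order of library number, DP left and DR right. In nearly every library a single colour fills the bar, and the colour changes from library to library in both groups.

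The alternating names had wide errors. The standard error of the log2 fold change was 0.73 to 0.92 for the 8 tested members in alternating sets, against 0.066 to 0.22 for the other 19 tested members. Since the rule required each name to lead in some libraries and not in others, a wide spread followed from the choice of the 8. The 3 highest and 3 lowest fold changes were mostly of such names. MiR-466b-3p had the highest log2 fold change, 0.91 ± 0.92 (SE). It had 0 to 2.72 CPM in DP and 0 to 2.07 CPM in DR libraries, with a median of 0 in both groups. MiR-669p-5p had 0.81 ± 0.74 (SE), from 0 to 4.35 CPM in DP (median 2.65) and 0 to 2.89 CPM in DR libraries (median 1.04). At the other end were miR-669o-3p with -0.34 ± 0.78 (SE), miR-466c-3p with -0.27 ± 0.85 (SE) and miR-669a-5p with -0.21 ± 0.87 (SE). Single libraries moved these values, and leaving out 1 at a time gave 0.59 to 1.44 for miR-466b-3p, -0.79 to -0.083 for miR-669o-3p, -0.78 to 0.060 for miR-466c-3p and -0.46 to -0.045 for miR-669a-5p. MiR-669a-3p, identical to miR-669o-3p, had a value of the opposite sign, 0.28 ± 0.75 (SE), or 0.12 to 0.54 without 1 library. None of these 6 passed the test, and apart from miR-297a-5p, itself among the 3 highest, the extremes of the members were all alternating names.

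When each alternating set was replaced by its sum, the standard error was 0.096 to 0.24 in the 5 sets that passed the filter. For miR-669a-3p with miR-669o-3p, the fold change and its error came from a fit in which only member pairs of identical sequence were summed. The sum of miR-669a-3p and miR-669o-3p was 0.67 to 2.55 CPM in DP libraries (median 1.06) and 0.42 to 2.07 CPM in DR libraries (median 1.15), with a log2 fold change of -0.04 ± 0.21 (SE, 95% interval -0.45 to 0.38). The sum of miR-466b-3p, miR-466c-3p and miR-466p-3p had a fold change of -0.09 ± 0.24 (SE) and that of miR-297c-5p and its piRNA partner 0.15 ± 0.16 (SE), or 0.063 to 0.23 without 1 library. None of the 3 passed the test.

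The summed level of miR-669a-5p and miR-669p-5p was higher in DP mice. It was 2.39 to 4.35 CPM in DP libraries (median 2.99), against 1.75 to 3.05 CPM in DR libraries (median 2.39), and 14 of 15 DP libraries lay above the DR median. The log2 fold change was 0.39 ± 0.10 (SE, 95% interval 0.20 to 0.57) with an adjusted p of 0.0029 in the quasi-likelihood test. Below library number 200 it was 0.38 (adjusted p = 0.035) and from 200 on 0.48 (adjusted p = 0.103). The names taken singly gave -0.21 for miR-669a-5p and 0.81 for miR-669p-5p, neither of which passed. Their sequences were not at hand, so that whether the sum stands for a single sequence is not known here. The marker differences stated above moved with the groups here as well, and their part was not tested.

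The summed level of miR-669c-5p and mmu_piR_032015 was lower in DP mice. It was 4.40 to 9.51 CPM in DP libraries (median 7.44), against 6.93 to 15.1 CPM in DR libraries (median 8.16), and 2 of 15 DP libraries lay above the DR median. The log2 fold change was -0.31 ± 0.11 (SE, 95% interval -0.52 to -0.10) with an adjusted p of 0.033 in the quasi-likelihood test. DR replicate 6 was far above all others, with 354 counts. Without it the log2 fold change was -0.23 and the adjusted p 0.066, and the call was lost as well without DP replicate 5, 9 or 11 (adjusted p = 0.053, 0.052 and 0.053). Below library number 200 it was -0.46 (adjusted p = 0.044) and from 200 on -0.10 (adjusted p = 0.805). Markers moved with the groups as above, and their part was not tested. The sequences of miR-669c-5p and mmu_piR_032015 were not at hand either. With sums in place of names 3 of 24 members passed, against 26.1% of all 1159 features, and the sums were formed after the counts were seen, so that the 2 calls on sums are not independent of that choice.

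**Figure D4:**
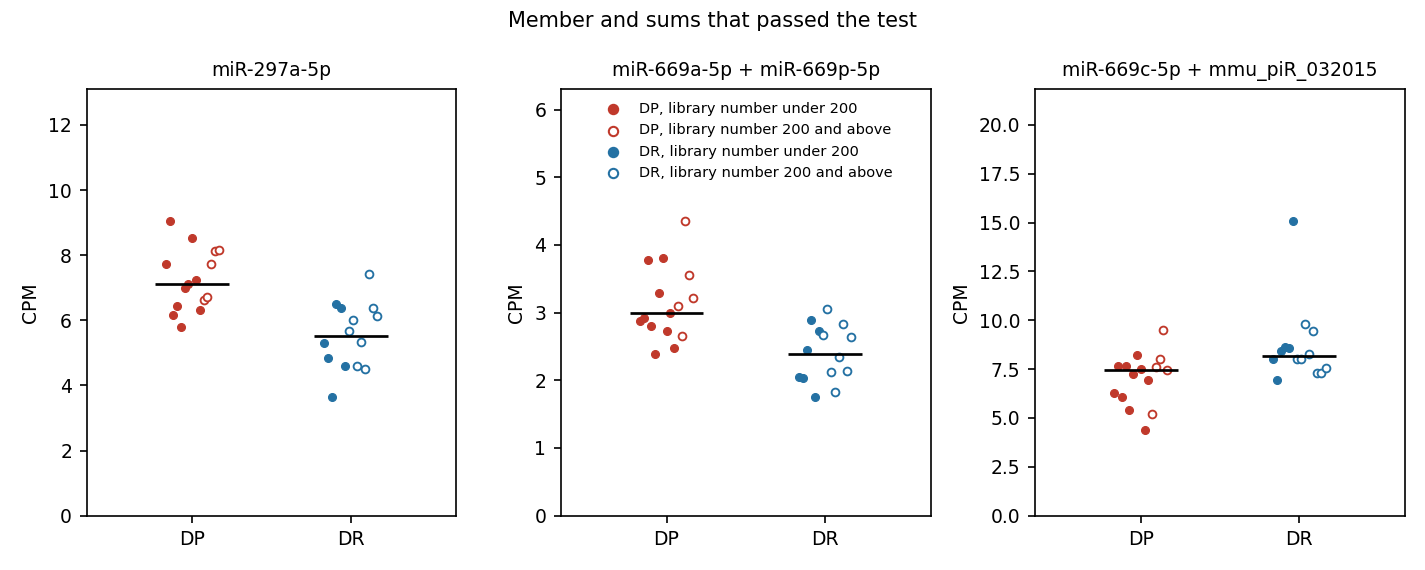
CPM of miR-297a-5p and of the 2 sums that passed the test, 1 point per library, DP left and DR right, with filled points for library numbers below 200 and a bar at the group median. The groups overlap in each panel, and 1 DR library stands apart for miR-669c-5p with its piRNA partner.

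The remaining tested members, outside the alternating sets, did not pass the test. MiR-669f-5p had a log2 fold change of 0.17 ± 0.10 (SE) at a median of 2.97 CPM in DP and 2.83 CPM in DR libraries. Of the 19 tested members outside the sets, 17 had a 95% interval that stayed within 0.5 of 0 on the log2 scale, and 10 had a positive value. The members with the widest of these intervals included the 3p arms miR-467a-3p and miR-467d-3p, both near 1 CPM. The Dlk1-Dio3 cluster miR-379 to miR-410 is another imprinted miRNA cluster and one that the study singled out in these samples. It had 13 of 50 tested mature entries higher in DP and 0 lower, where 15.3% of all tested mature entries were higher. In either direction 26% of its entries passed, against 27.2% of all tested mature entries. Its median log2 fold change was 0.20. The difference between the clusters was not tested.

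**Figure D5:**
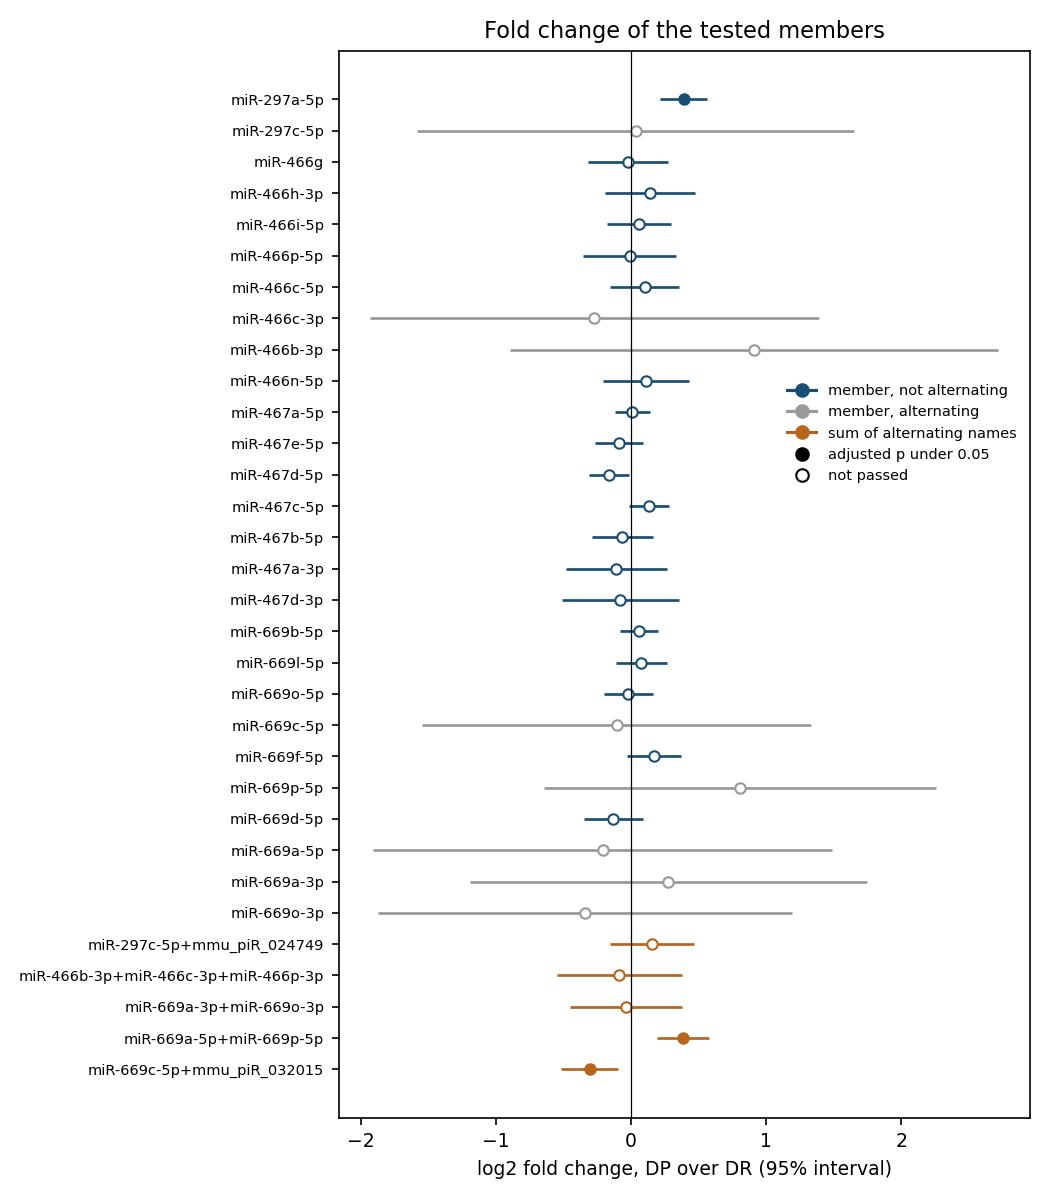
Log2 fold change of DP over DR with its 95% interval for the 27 tested members and the 5 sums that passed the filter, filled where the adjusted p was under 0.05. The members in alternating sets have intervals several units wide, and the sums have intervals like those of the other members.

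At the level of families, the miR-297 family summed to 6.51 to 13 CPM in DP (median 8.04) and 4.73 to 10.3 CPM in DR libraries (median 6.95). Of the summed level, miR-297a-5p was the main part, and the ratio of means was 0.33 on the log2 scale. Over members with hairpins in Sfmbt2 alone, which leaves out miR-297a-5p, it was 0.075. That value rests mainly on miR-297c-5p, an alternating name, counted there without its piRNA partner. With mmu_piR_024749 added, the whole miR-297 family summed to 9.99 ± 1.63 CPM in DP libraries, against 7.97 ± 1.40 CPM in DR libraries (SD). The ratio of means was then 0.33 on the log2 scale. MiR-466 summed to 13.5 ± 1.6 CPM in DP libraries, against 12.9 ± 1.6 CPM in DR libraries (SD). MiR-467 summed to 154.5 ± 15.6 CPM in DP libraries, against 156.5 ± 11.2 CPM in DR libraries. MiR-669 summed to 36.9 ± 5.4 CPM in DP libraries, against 35.6 ± 6.0 CPM in DR libraries. With mmu_piR_032015 added, the miR-669 values were 38.9 ± 4.1 CPM in DP libraries, against 38.8 ± 3.1 CPM in DR libraries, so that the spread within groups was smaller. These sums were not tested.

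Hairpin entries gave a second reading of the same loci. Of 72 hairpin entries with family names 31 were tested, and 0 passed, against 24.7% of all tested hairpin entries, with 3 at an unadjusted p under 0.05, against 35.5% of all tested hairpin entries. DESeq2 called 1. Their median log2 fold change was 0.067 and that of all hairpin entries 0.016. The hairpin entry of miR-467a-5p had 11.2 to 30.3 CPM in DP and 11.8 to 26.97 CPM in DR libraries. That of miR-467d-5p had a log2 fold change of -0.14 ± 0.06 (SE, adjusted p = 0.0866 in the quasi-likelihood test), the same direction as its mature entry.

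Hairpin entries traded counts as well. In 13 libraries the miR-669f-5p hairpin entry had 2 to 16 counts, and the miR-669b-5p hairpin entry had at least 254. In the other 16 libraries the miR-669f-5p hairpin entry had 184 to 313 counts and that of miR-669b-5p 73 to 157. Their sum had medians of 333 and 356 counts in these sets of libraries, and both sets held DP and DR mice. The mature entries of the same names did not alternate, with 2.22 to 3.92 CPM for miR-669f-5p in DP and 1.95 to 3.65 CPM in DR libraries. The hairpin entry of miR-467h, encoded on chromosome 9, had 0 to 8 counts in 17 libraries, where that of miR-467c-5p had 127 to 315. In the other 12 libraries it had 109 to 185 counts, with 23 to 140 for miR-467c-5p.

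Libraries carried running numbers, and the members were compared by them. Of 27 tested members, 4 differed between the libraries numbered 200 and above and those below 200 in a fit that also held the group, against 25.4% of all tested mature entries. Higher at 200 and above were miR-467e-5p with a log2 fold change of 0.29 ± 0.08 (SE), miR-669l-5p with 0.34 ± 0.08 (SE) and miR-669o-5p with 0.33 ± 0.07 (SE). MiR-466p-5p was lower, with -0.51 ± 0.16 (SE). MiR-297a-5p, with 0.10 ± 0.09 (SE), did not pass. What the numbers stand for is not given in the sources used here. Of the DP libraries 5 of 15 were numbered 200 or above, and of the DR libraries 8 of 14. The interaction of group and library number was significant for 0 of 27 members by edgeR, with 2 at an unadjusted p under 0.05 (miR-466b-3p and miR-466c-3p, both of an alternating set). Over all 1162 features it was significant for 0%, with 6.2% at an unadjusted p under 0.05.

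Within groups, some members varied together across libraries. Spearman's rho over the 29 libraries, after removal of the group means, was 0.79 for miR-467a-5p with miR-467d-5p, 0.76 for miR-467e-5p with miR-669l-5p and 0.74 for miR-467c-5p with miR-669b-5p. These were the highest values among the 19 tested members outside the sets, whose pairs had a median of 0.12. Over all pairs of tested mature entries the median was 0.00049 and the range -0.89 to 0.98, so that the values above lie inside it. Among the member pairs the lowest value, -0.50, was that of the 2 arms of miR-467d. These are descriptions, since the pairs share libraries, depth and library number, and family members share sequence.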

How the data were processed

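Total RNA of gWAT was extracted by the authors with a miRNeasy kit and sequenced on a BGISEQ-500. The deposited table holds raw counts per small RNA, and the authors annotated mature and hairpin miRNAs with the miRDeep2 pipeline. The submitters' processing notes name Bowtie2 and mm10. Total counts per library ranged from 24266300 to 27662601, and counts of members limit the precision to that given beside each value. Mature and hairpin entries with a mean count above 10 (1162 features) were fitted with edgeR 4.0.16 (R 4.3.3) using TMM factors and the quasi-likelihood F-test, two-sided, with Benjamini-Hochberg adjustment over all features and a threshold of 0.05. The 95% intervals are the estimate ± 1.96 SE. CPM divides by the TMM-scaled total of these fitted mature and hairpin entries, which leaves out piRNA and other classes. The fit was tested on simulated data. Alternatives covered normalization, count filters, entries fitted, library number, single libraries left out and other tests, among them DESeq2 1.42.0 and limma-voom (limma 3.58.1). The members and lists were chosen with earlier results of these data known. Described by name were members past the threshold, the 8 most abundant, the 3 highest and 3 lowest fold changes and any identical in sequence. Others are named for their counts and were chosen after their values were seen. Sequence identity was read from RefSeq and from the study's supplementary list. Each library came from 1 mouse per the study's methods, and p-values measure the spread between these 29 mice.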

Additional observations from a re-analysis of the deposited data

How the results depend on the processing

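The call of miR-297a-5p held in each of the 29 fits that left out 1 library (log2 fold change 0.35 to 0.43) and in all other fits but the one restricted to libraries numbered 200 and above (0.40, adjusted p = 0.105 by edgeR). The count of members called was 1. It was 2 with library totals (miR-467c-5p added, 0.21) and with a term for library numbers from 200 up (miR-467d-5p added), 3 in libraries numbered below 200 (miR-466b-3p and miR-466c-3p added), 0 in those of 200 and above and 3 with alternating names summed. Fits without 1 library gave 1 throughout. The count of hairpin entries called was 0, and it was 1 with RLE size factors, 1 with DESeq2, 1 with the term for numbers from 200 up, 2 with library totals, and 0 to 1 without 1 library, where the 1 arose without DP replicate 1, 2, 6, 12 or 15. The sum of the identical miR-669a-3p and miR-669o-3p was 0.045 with library totals and -0.16 to 0.045 without 1 library. Directions that turned were those of members and sums that did not pass with all 29 libraries in the fit. Of these, miR-466b-3p (6.08) and miR-466c-3p (-2.70), both of an alternating set, had passed in libraries numbered below 200. MiR-467a-5p was -0.0073 with RLE, -0.020 with a mean count above 1, -0.017 with no filter, -0.0073 with DESeq2, -0.015 with library number as a linear term, -0.034 with the term for numbers from 200 up, -0.12 in libraries of 200 and above and -0.021 to 0.033 without 1 library. MiR-669o-5p was 0.053 with library totals, 0.019 and 0.050 with the linear term and the one from 200 up, 0.15 in libraries of 200 and above and -0.053 to 0.0064 without 1 library. MiR-669a-5p was 0.055 with the term from 200 up and 0.43 below 200. In libraries of 200 and above miR-467e-5p was 0.013, miR-466b-3p -0.59, miR-669o-3p 0.026, miR-466c-3p 2.04, miR-669a-3p -0.040 and the sum of miR-466b-3p, miR-466c-3p and miR-466p-3p 0.086. MiR-466c-3p was -0.78 to 0.060 without 1 library. For each of these the cause was not tested. The alternating names summed, the piRNA partners added to family sums and the library number as the term read were chosen after seeing the data. No paired analysis was possible because the labels give each library a number of its own that DP and DR mice do not share.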
